A study of Rattus norvegicus with 24 samples.

Results

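The liver transcriptome of rats fed cholesterol with Geneva kiwifruit was compared with that of rats fed cholesterol alone, at the probes bright enough to be read on every array. The Ch group held 8 male Wistar rats on a diet with 1% cholesterol, and the ChGENE group held 8 that received the same diet with 5% of freeze-dried Geneva fruit, a kiwiberry (Actinidia arguta). Both diets thus contained cholesterol, both were fed for 42 days, and all 16 arrays carried total RNA of whole liver, 1 array a rat by the labels. Another diet, with Hayward kiwifruit (ChHAYW), brings the series to 24 arrays and enters only where named. Of 30367 probes other than controls, 14071 (46.3%) were marked well above background on all 16 arrays and formed the set described here. They covered 9936 genes, and 11490 of them carried a gene symbol. Values are log2 of the scanner's processed signal after quantile normalization over these probes, which gives every array the same distribution, so a difference of 1 is a 2-fold difference. A level can be compared between rats but not between genes, because probes differ in brightness.

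The liver meets dietary cholesterol with a set of linked programs. Sterol-sensing SREBP factors set the genes of cholesterol and fatty acid synthesis, the cytochromes P450 Cyp7a1 and Cyp8b1 turn cholesterol into bile acids, and the nuclear receptor Nr0b2 (SHP) restrains that step. Stearoyl-CoA desaturase, encoded by Scd, makes the monounsaturated fatty acids that are stored with cholesterol and glycerol. Hepatocytes next to the central vein follow a Wnt signal and carry much of the P450 metabolism, whereas those around the portal vein carry gluconeogenesis and urea synthesis.

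Promoters of 3 genes are shown because Scd heads the falls, Cyp8b1 heads the rises among genes with a known role, and Sp5 is a Wnt target. Each is the 250 bases before the RefSeq start of the gene in rat build GRCr8, written 5′ to 3′ along the gene. Capitals mark the TCF/LEF letters CTTTGAT and the CCAAT box, which were searched on both strands together with the sterol regulatory element TCACNCCAC and the HNF4 letters CAAAGTCCA. Scd lies on the minus strand at chr1:253231732-253231981, Cyp8b1 on the minus strand at chr8:130457593-130457842, and Sp5 on the plus strand at chr3:75682427-75682676.
Scd: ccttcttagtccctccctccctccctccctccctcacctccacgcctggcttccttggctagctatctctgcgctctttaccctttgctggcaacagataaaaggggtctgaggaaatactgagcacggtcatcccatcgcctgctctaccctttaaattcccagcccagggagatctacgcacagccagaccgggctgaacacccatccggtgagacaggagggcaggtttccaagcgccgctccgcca
Cyp8b1: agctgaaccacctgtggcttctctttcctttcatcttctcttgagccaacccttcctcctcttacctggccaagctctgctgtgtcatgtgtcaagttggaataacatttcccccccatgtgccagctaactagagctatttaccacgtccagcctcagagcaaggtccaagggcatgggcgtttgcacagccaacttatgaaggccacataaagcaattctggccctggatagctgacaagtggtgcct
Sp5: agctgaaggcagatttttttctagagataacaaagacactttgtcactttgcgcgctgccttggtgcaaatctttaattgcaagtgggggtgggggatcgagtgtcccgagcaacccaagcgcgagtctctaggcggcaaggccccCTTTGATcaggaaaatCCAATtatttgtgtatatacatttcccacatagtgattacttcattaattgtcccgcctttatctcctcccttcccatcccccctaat

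The Sp5 window held CTTTGAT and CCAAT 1 time each, and the Scd and Cyp8b1 windows held none of the 4 motifs. Of all genes that passed the test given below, 61 had a promoter in the table. CTTTGAT stood in 3 of them (4.92%, against 3.15% of all 33469 promoters), CCAAT in 22 (36.1%, against 34%), the sterol element in 1 (1.64%, against 0.974%) and the HNF4 letters in 0 (against 0.338%). A match describes letters only, and the absence of one says nothing about a factor.

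Features of the arrays bear on every result. By the file names, all arrays of a diet lay on 1 slide, and a diet effect cannot be told apart from a slide effect. ChGENE arrays were brighter: the 75th percentile of signal ran from 525.3 to 1028 (median 922), against 246.7 to 879.6 (median 579.7) in Ch, and 59.9% to 66.1% of probes were above background, against 49.7% to 62.3%. Ch 4 was the dimmest array and correlated least with its group (median r = 0.9459, against 0.9715 or more for the other Ch arrays). The labels number every array as a rat of its own, but 1 pair in each diet was nearly identical. ChGENE 4 and ChGENE 5 differed with an SD of 0.191 over the bright probes (r = 0.9974), and Ch 1 and Ch 2 with an SD of 0.213 (r = 0.9968). The other pairs of the 56 within a diet differed with an SD of 0.351 to 0.973 (median 0.579). At the 967 probes printed as 10 spots, spot noise alone would give an SD of 0.0356 in both pairs, and 0.106 and 0.135 were found. The differences were therefore above spot noise, and noise between arrays of 1 RNA was not measured. Genes that passed are given with all 16 arrays, and beside it with each of these pairs averaged to 1 replicate (7 against 7).

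With all 16 arrays, 83 probes passed the limma test, with a p below 0.05 after Benjamini-Hochberg adjustment and a difference of 1.3-fold or more. Of these, 27 were higher in ChGENE (0.192% of those tested) and 56 were lower (0.398%). They stood for 68 named genes, 23 higher and 45 lower, and 12 probes without a symbol. With the near-identical pairs averaged, 4 of the 83 remained, 1 higher (0.00711%) and 3 lower (0.0213%). The named ones are Trim47, Slc2a1 and Sp5. All 83 kept their sign after averaging, 39 had an adjusted p under 0.1, and the highest was 0.172. Below, a gene is said to pass when its probe did so with all 16 arrays, and the adjusted p after averaging follows. Because a p-value here measures only the spread between these arrays, it is too small wherever 2 arrays stand for 1 animal.

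**Figure D1:**
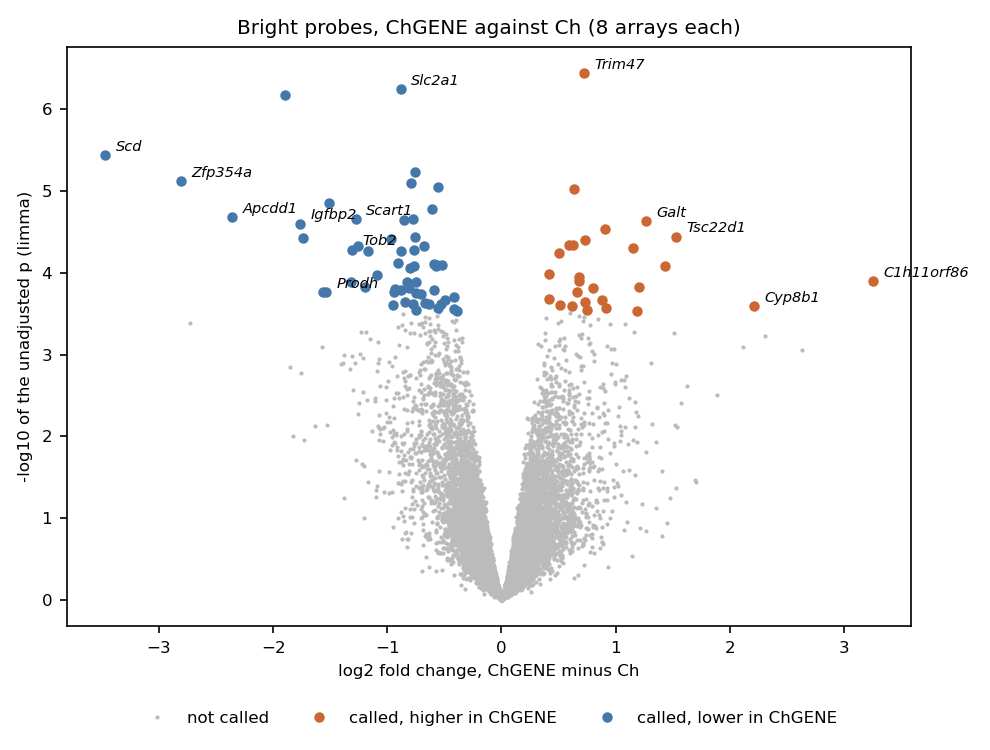
Each point is 1 of the 14071 bright probes, by its log2 fold change (ChGENE minus Ch) and the negative log10 of its unadjusted limma p with 8 arrays a diet. The 27 probes that passed as higher are orange and the 56 that passed as lower are blue, and Scd lies farthest to the left.

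The largest difference was in Scd, which desaturates stearoyl-CoA and palmitoyl-CoA. Its level ran from 8.79 through a median of 10.70 to 12.47 in Ch, and from 5.80 through 6.72 to 8.79 in ChGENE. The diets did not overlap, although the highest ChGENE array (ChGENE 1) all but touched the lowest Ch array. Scd was thus 11.1-fold lower (log2 fold change −3.47, standard error 0.52, limma adjusted p = 0.0129, and 0.0541 with the pairs averaged). It passed in each of the 16 fits that left out 1 array. The probe lies at chr1:249458860-249458919 of rn4, the build of the array design.

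Around the desaturase the other fatty acid synthesis genes did not move together. Of 16 genes of this list with a bright probe, 1 passed as lower and 0 as higher (0.433% and 0.191% of all 9936 genes at their brightest probe), and after averaging 0 passed. The list median was −0.06, with 7 genes positive and 9 negative, against a median of −3e-04 over all bright probes. It turned to 0.021 with the pairs averaged and to 0.047 without ChGENE 4 and ChGENE 5. Fasn, the fatty acid synthase, had −0.73 (limma adjusted p = 0.119). Of the elongases, Elovl5 had 1.07 (adjusted p = 0.0924), Elovl2 0.81 at its dimmer probe (adjusted p = 0.0735) and 0.47 at its brighter one, Elovl1 0.04 (0.868) and Elovl6 −0.30 (0.697). Gpat4, which adds the first acyl chain in triglyceride synthesis, passed at −0.56 (limma adjusted p = 0.0486, and 0.158 after averaging). It was singled out after its values were seen, and passed in 3 of the 16 fits that left out 1 array. Gpat4 was not on the list of triglyceride synthesis, droplets and VLDL, whose median had the opposite sign. Of 19 bright genes there, 12 were positive with a median of 0.225, and 0 passed. At an unadjusted limma p under 0.05, 5 were higher and 2 lower (26.3% and 10.5%, against 7.39% and 8.55% of all genes).

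Cholesterol synthesis was represented by 20 of 21 listed enzymes. The list median was −0.22, with 14 of 20 genes negative. As lower 2 passed and as higher 0, where 0.433% and 0.191% of all genes did, and after averaging 0 passed. At an unadjusted p under 0.05, 5 were lower and 0 higher, where 8.55% and 7.39% of all genes were. Idi1, the isomerase of isopentenyl diphosphate, had −0.47 (limma adjusted p = 0.0931), Fdft1, squalene synthase, −0.28 (0.139) and Msmo1, a sterol demethylase component, −0.29 (0.252). Of the genes that control the pathway, 0 of 11 passed. Their median was −0.15 (−0.081 without ChGENE 4 and ChGENE 5), Srebf1 had −0.74 (adjusted p = 0.167), Srebf2 −0.36 (0.141) and Stard4, a sterol carrier, −0.64 (0.188). Scaled to spike-ins, with the median of all bright probes at 0.414, the cholesterol synthesis median was 0.226, which is below that shift.

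**Figure D2:**
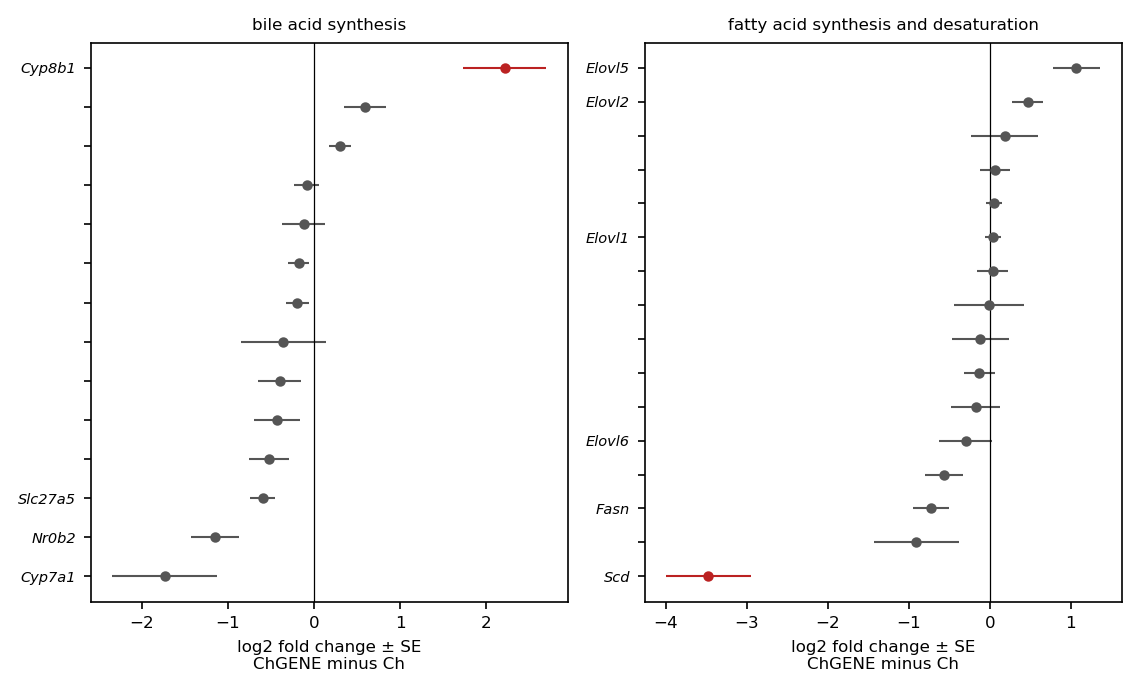
Points are the log2 fold change (ChGENE minus Ch) of each gene of 2 lists at its brightest probe, with bars of 1 standard error from limma (8 arrays a diet), and genes that passed the test are red. Genes that the text describes are labelled. Cyp8b1 is alone at the positive end of the bile acid panel, and Scd lies far below the other genes of the fatty acid panel.

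In bile acid synthesis 1 gene passed. Cyp8b1, the sterol 12-alpha-hydroxylase that directs synthesis toward cholic acid, had levels of 9.15, 11.26 and 13.45 (lowest, median, highest) in Ch and 12.80, 13.35 and 14.28 in ChGENE. The Ch arrays were spread widely and 2 of them reached the ChGENE range. Cyp8b1 was 4.63-fold higher (log2 2.21, standard error 0.483, limma adjusted p = 0.0475). It lost the call after averaging (adjusted p = 0.154) and in 14 of the 16 fits that left out 1 array, all but those without Ch 3 and without Ch 5.

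Cyp7a1, the first and rate-limiting enzyme of the classic route, pointed the other way without passing. It had 7.14, 9.28 and 10.55 in Ch and 4.86, 7.75 and 8.72 in ChGENE, a log2 fold change of −1.73 (standard error 0.608, limma adjusted p = 0.169). Nr0b2, the repressor of that route, had −1.15 (0.0629), from 13.08, 14.27 and 15.15 in Ch to 12.11, 13.26 and 13.77 in ChGENE. Slc27a5, which activates bile acids for conjugation, had −0.59 (0.0653). Over the 14 bright genes of the list the median was −0.27 with 11 negative and 3 positive. As higher 1 passed and as lower 0, where 0.191% and 0.433% of all genes did, and after averaging 0 passed. At an unadjusted limma p under 0.05, 3 were higher and 4 lower (21.4% and 28.6%, against 7.39% and 8.55% of all genes). Without ChGENE 4 and ChGENE 5 the median was −0.126.

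Lower values prevailed in the enzymes that clear drugs and steroids. Of 24 P450 genes and partners, 19 were negative with a median of −0.44, and 8 were lower and 0 higher at an unadjusted p under 0.05 (33.3% against 8.55% of all genes). Only Cyp2c22, a retinoic acid hydroxylase, passed, where 0.433% of all genes passed as lower. Its level ran from 9.46 to 10.80 (mean 10.04) in Ch and from 8.00 to 9.68 (mean 8.85) in ChGENE. That is 2.29-fold lower (log2 −1.20, standard error 0.247, limma adjusted p = 0.0406, and 0.0971 averaged), with 2 Ch arrays inside the ChGENE range. It kept the call only without ChGENE 1, ChGENE 5, Ch 3, Ch 4 or Ch 5 among the fits that left out 1 array. Cyp3a23-3a1 had −1.53 (adjusted p = 0.141), but −0.72 without ChGENE 4 and ChGENE 5 (0.0832). Cyp2b2 had −0.85 (0.241) and −0.38 at its probes (0.398), and Cyp2j3 −0.51 at its brighter probe (0.112).

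Of 26 glucuronosyl, sulfo and glutathione transferases, 21 were negative with a median of −0.33, and 1 passed as lower (0.433% of all genes did). Under spike-in scaling, with the median of all bright probes at 0.414, the median was −0.017 here and −0.18 for the P450 genes. Relative to that shift these medians were −0.431 and −0.594. Gstt3, a theta-class glutathione transferase, had 12.39, 13.21 and 13.83 in Ch and 10.63, 11.65 and 12.64 in ChGENE. It was 2.95-fold lower (log2 −1.56, limma adjusted p = 0.0406, and 0.154 averaged), and its second probe had −1.29 without passing (0.0791). The call was kept only without ChGENE 1, ChGENE 2, ChGENE 8, Ch 3, Ch 4 or Ch 5. Sult1e1, the estrogen sulfotransferase, had −0.83 (0.0662) and Ugt1a6 −0.53 (0.0907) at its brighter probe. Sult2a1, which sulfates bile acids and steroids, had the opposite sign, 1.89 (0.104).

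Both lists depended on 2 arrays. Without ChGENE 4 and ChGENE 5 the median was −0.188 for the P450 genes and −0.103 for the transferases, and with the pairs averaged −0.345 and −0.198. Some acute phase and myeloid genes, picked after their values were seen, stood far higher in these arrays. A2m, the alpha-2-macroglobulin that rats raise in inflammation, stood at 14.96 and 14.91 in them, against 9.27 to 10.80 in the other ChGENE arrays and 9.18 to 10.77 in Ch. Orm1, an acute phase glycoprotein, stood at 18.33 and 18.28, against 12.62 to 14.75 and 12.23 to 15.51. S100a9, a myeloid calcium-binding protein, stood at 13.27 and 13.23, against 5.56 to 6.81 and 5.47 to 8.15. Camp, the other bright neutrophil marker, did not share this and stood lowest there, at 7.03 and 7.46. The part of these arrays in the lower P450 and transferase values was not tested beyond leaving them out and averaging them.

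Amino acid breakdown had 22 of 30 genes negative, with a median of −0.32 and 11 lower against 1 higher at an unadjusted p under 0.05 (36.7% and 3.33%, against 8.55% and 7.39% of all genes). Prodh, the first enzyme of proline oxidation, was the 1 that passed, where 0.433% of all genes passed as lower. It had 12.40, 13.14 and 14.35 in Ch and 10.91, 11.89 and 12.45 in ChGENE, with 1 Ch array inside the ChGENE range, and was 2.90-fold lower (log2 −1.54, standard error 0.322, limma adjusted p = 0.0406, and 0.152 averaged). The call was kept only without ChGENE 1, ChGENE 2, Ch 3, Ch 4, Ch 5 or Ch 6. A second, dimmer probe had −1.06 (0.149). Aldh4a1, the next enzyme of the proline route, had −0.62 at its dimmer probe (0.0549) and −0.48 at the brighter one (0.138). Hibadh of valine breakdown had −0.44 (0.0785). The list median was −0.183 without ChGENE 4 and ChGENE 5.

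Wnt-dependent, pericentral genes had 10 of 14 members negative with a median of −0.44, which was −0.343 with the pairs averaged and −0.215 without ChGENE 4 and ChGENE 5. Apcdd1, a membrane inhibitor of Wnt that is itself a Wnt target, had levels of 6.59, 8.22 and 9.89 in Ch and 4.93, 5.84 and 7.05 in ChGENE. It was 5.13-fold lower (log2 −2.36, standard error 0.407, limma adjusted p = 0.0204, and 0.0893 averaged), and 1 Ch array reached the ChGENE range. It lost the call without Ch 2. Sp5, a transcription factor switched on by Wnt whose promoter is shown above, had 5.68, 6.12 and 6.22 in Ch and 5.18, 5.43 and 5.71 in ChGENE. It was 1.52-fold lower (log2 −0.61, standard error 0.103, limma adjusted p = 0.0204) and still passed after averaging (0.0432) and without ChGENE 4 and ChGENE 5 (0.0253). It too lost the call without Ch 2, and also under normexp background correction and spike-in scaling.

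Other members gave a mixed picture. Notum, a secreted Wnt feedback inhibitor, had −0.70 (limma adjusted p = 0.158, and a log2 fold change of −0.38 without ChGENE 4 and ChGENE 5), Slc1a2, the glutamate transporter of pericentral cells, −0.67 at its brighter probe (0.163) and Aldh1a1 −0.87 (0.222, and a log2 fold change of −0.32 without ChGENE 4 and ChGENE 5), while the glutamine synthetase gene Glul had −0.14 (0.775) and Tbx3 −0.13 (0.785). Among the brighter 50% of the bright probes the list median was −0.067. Of 14 periportal genes 0 passed, with a median of −0.12 and 8 negative. The difference between the 2 zones was not tested.

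**Figure D3:**
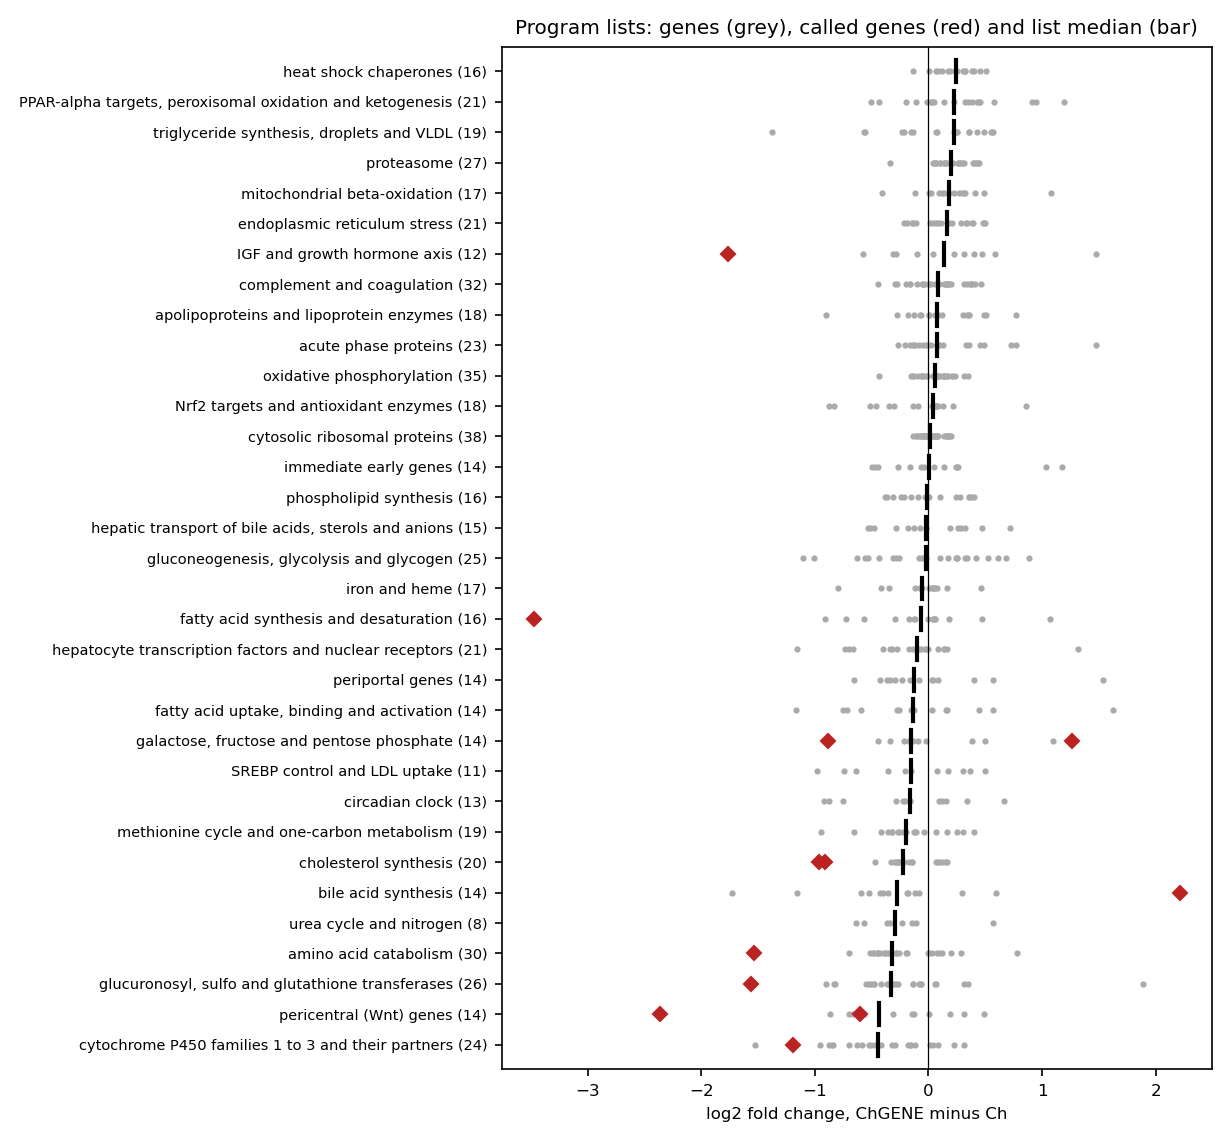
Each row is a program list with its number of bright genes in brackets. Grey points are the log2 fold changes (ChGENE minus Ch) of genes at their brightest probe, red diamonds the genes that passed, and black bars the list medians, from the lists of lowest median at the bottom to those of highest at the top. The P450 and pericentral lists lie lowest, while the 38 ribosomal genes lie within −0.137 and 0.195.

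The list of galactose, fructose and pentose phosphate genes held 1 gene that passed in each direction. Of all genes, 0.191% passed as higher and 0.433% as lower. Slc2a1, the glucose transporter GLUT1, had 8.36, 8.59 and 9.01 in Ch and 7.52, 7.73 and 8.01 in ChGENE. Every ChGENE array was below every Ch array, and the gene was 1.84-fold lower (log2 −0.88, standard error 0.114, limma adjusted p = 0.00309, and 0.0382 averaged). Slc2a1 passed in each of the 16 fits that left out 1 array but not under spike-in scaling, and its probe lies at chr5:139718779-139718838 of rn4. Slc2a2 (GLUT2), the main glucose carrier of hepatocytes, was placed on the list of glycolysis, gluconeogenesis and glycogen and had −0.53 without passing (0.094).

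Galt, the transferase that converts galactose 1-phosphate, had 10.56, 11.26 and 12.08 in Ch and 12.09, 12.65 and 13.38 in ChGENE. Again the diets did not overlap, with ChGENE higher. Galt was 2.41-fold higher (log2 1.27, standard error 0.221, limma adjusted p = 0.0204, and 0.0893 averaged) and lost the call only without Ch 2 among the fits that left out 1 array. The 12 other members of this list of galactose, fructose and pentose phosphate genes did not pass, among them Sord with −0.34 (0.294), and the list median was −0.15. The median was −0.075 with the pairs averaged and turned to 0.016 without ChGENE 4 and ChGENE 5, where Sord had −0.12. Of 25 genes of glycolysis, gluconeogenesis and glycogen, 0 passed. Ldha, lactate dehydrogenase, had 0.68 (0.0608) and Gys2, the liver glycogen synthase, 0.88 (0.0956).

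Igfbp2, a hepatic binding protein of insulin-like growth factors that insulin lowers, passed at both of its probes. The brighter had 13.13, 14.06 and 14.89 in Ch and 11.27, 12.08 and 13.45 in ChGENE, with 2 Ch arrays inside the ChGENE range. It was 3.40-fold lower (log2 −1.76, standard error 0.31, limma adjusted p = 0.0207, and 0.0541 averaged), and the second probe had −1.74 (0.0241, and 0.0594 averaged). Of the rest of the growth hormone axis, Igfals, which holds IGF in its large blood complex, had 0.59 (0.0864), Igf1 0.40 (0.311) and Ghr, the receptor, 0.47 at 1 of 3 probes (0.168). Without ChGENE 4 and ChGENE 5 Igfals passed (0.76, limma adjusted p = 0.0407).

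Genes outside the lists were among the falls. Zfp354a, a zinc finger protein, had 7.65, 10.04 and 10.99 in Ch and 6.09, 6.64 and 8.02 in ChGENE, with 1 Ch array inside the ChGENE range. It was 6.99-fold lower (log2 −2.81, standard error 0.445, limma adjusted p = 0.0148, and 0.0594 averaged) and passed in all 16 fits that left out 1 array. Tob2, an antiproliferative protein, had −1.31 (0.0241, and 0.11 averaged) and Scart1, a scavenger receptor, −1.28 (0.0204, and 0.0541 averaged). In both the diets did not overlap, as in the adhesion molecule Cadm4 with −0.94 (0.0406, and 0.12 averaged). The potassium channel Kcnk5 had −1.09 (0.0348, and 0.133 averaged), the cadherin Cdh24 −1.25 (0.0241, and 0.0541 averaged) and Tsc22d3, which glucocorticoids raise, −0.95 (0.0475, and 0.148 averaged). Among the fits that left out 1 array, Tsc22d3 kept the call only without ChGENE 2, Ch 3, Ch 5 or Ch 6, and Kcnk5 only without ChGENE 1, ChGENE 2, Ch 3, Ch 4 or Ch 5. Cadm4 passed in 6 of these 16 fits.

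C1h11orf86, a gene without a well-known role, headed the rises. It had 5.43, 6.64 and 8.26 in Ch and 6.24, 10.21 and 11.93 in ChGENE. ChGENE 1 lay among the Ch arrays and the other ChGENE arrays lay above all of them. The gene was 9.52-fold higher (log2 3.25, standard error 0.661, limma adjusted p = 0.0374, and 0.136 averaged). It passed in 5 of the 16 fits that left out 1 array, and not under the t-test of the study's methods. Tsc22d1, a TGF-beta-inducible regulator, had 1.53 and 1.21 at its probes (0.0241 and 0.0406, and 0.0971 and 0.12 averaged).

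Trim47, a RING ubiquitin ligase, gave the most stable rise. At its leading probe it had 8.64, 8.82 and 9.06 in Ch and 9.25, 9.62 and 9.73 in ChGENE, with no overlap, and was 1.65-fold higher (log2 0.73, standard error 0.0911, limma adjusted p = 0.00309, and 0.0315 averaged). Its second probe had 0.64 (0.0148, and 0.0594 averaged). St6galnac4, a sialyltransferase, had 1.43 (0.0293, and 0.0551 averaged). Inhbe, the activin E subunit made by hepatocytes, had 1.19 without overlap (0.0496, and 0.124 averaged), and its other probe 1.16 without passing. Of the 16 fits that left out 1 array, St6galnac4 passed in 8 and the passing Inhbe probe in 5.

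Smaller rises included Ltbp4, Loxl2 and Cxcl12. Ltbp4, which holds latent TGF-beta in the matrix, had 0.91 (limma adjusted p = 0.0226, and 0.0893 averaged), Loxl2, a collagen crosslinker, 0.88 (0.0464, and 0.158 averaged) and the chemokine Cxcl12 0.80 (0.0406, and 0.12 averaged). Abcg3, a rodent ABC transporter, had 0.60 without overlap (0.0241, and 0.0893 averaged), but 0.19 at a second probe. Its relative Abcg3l4 had 0.68 at 1 probe (0.0355, and 0.12 averaged) and 0.27 at the other (0.347). Such close family members may share signal on an array. Lifr, the receptor of leukaemia inhibitory factor, had 0.73 (0.0471, and 0.152 averaged), Cdr2 1.15 (0.0241, and 0.106 averaged), Atat1, the tubulin acetyltransferase, 0.75 (0.0496, and 0.146 averaged) and Stam2, an endosomal sorting protein, 0.73 (0.0241, and 0.0541 averaged). Among the fits that left out 1 array, Lifr kept the call only without ChGENE 3, Ch 3, Ch 4 or Ch 5, and Atat1 only without ChGENE 1, Ch 3 or Ch 5. Of these 16 fits, Loxl2 passed in 6, and Abcg3l4 and Cxcl12 in 5 and 4 at their passing probes. Stam2 passed in 13 of them, but in only 7 of 15 other settings of scaling, filter or fit. Its call was lost under 75th-percentile scaling, median scaling and normexp background correction, among others.

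**Figure D4:**
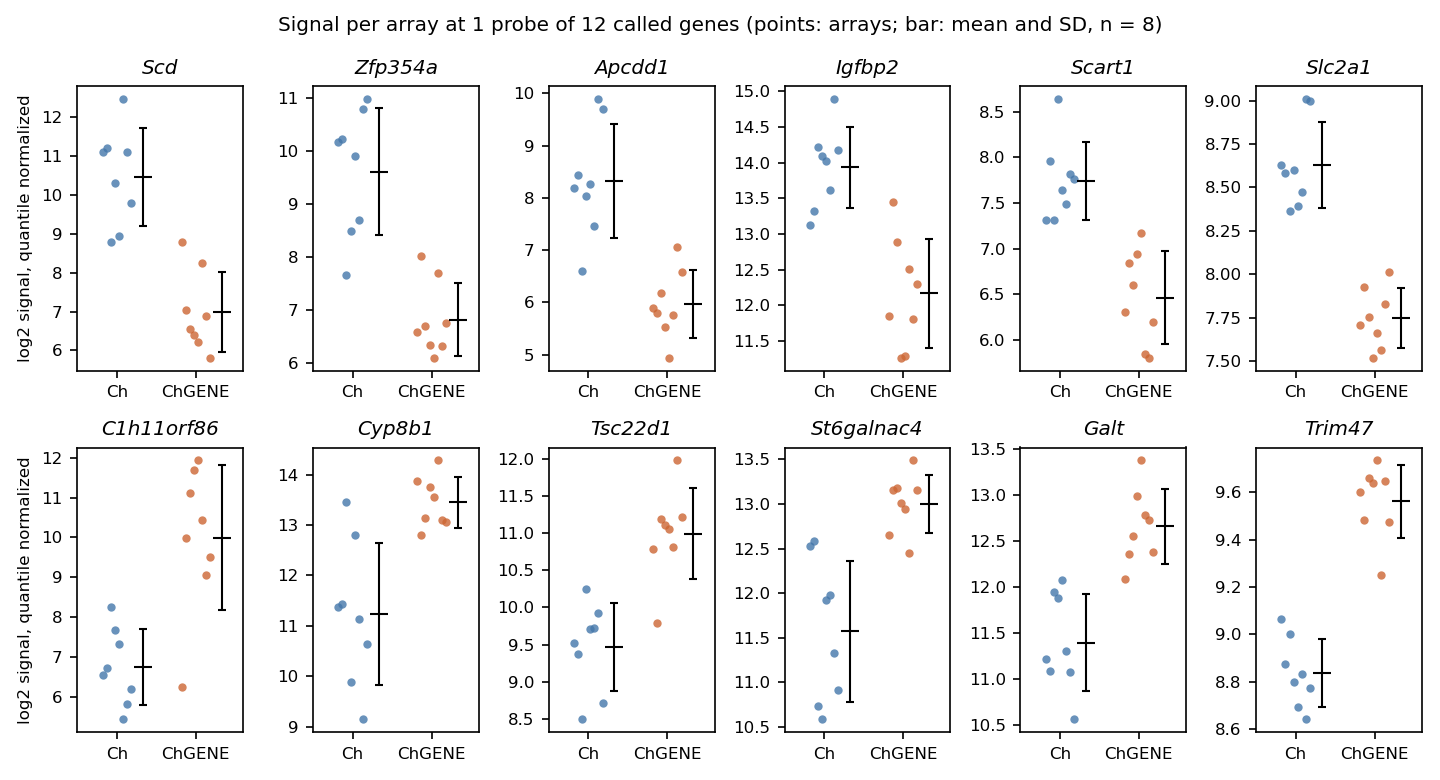
Points are the log2 quantile-normalized signal of each of the 8 Ch and 8 ChGENE arrays at 1 probe of 12 genes that passed, with the mean and SD beside them. The diets do not overlap in Scd, Slc2a1, Galt and Trim47, and in C1h11orf86 ChGENE 1 lies with the Ch arrays.

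Across the 83 probes, 31 did not overlap between the diets, 7 higher and 24 lower, against 49 (0.348%) of all bright probes. Of the 17 genes that passed and had more than 1 bright probe, 3 passed at each of them (Igfbp2, Trim47 and Tsc22d1), and in 14 all probes had the same sign. Of 29 genes that the study names for this comparison, 14 had a bright probe and 13 of these passed, which is no independent evidence since the arrays are the same.

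Several programs had a median above 0 with no gene that passed, before or after averaging. In the proteasome, the complex that degrades tagged proteins, 26 of 27 genes were positive with a median of 0.20, and 10 were higher at an unadjusted p under 0.05 (37% against 7.39% of all genes). Psmb3 had the smallest adjusted p of those named (0.43, limma adjusted p = 0.0915). Heat shock chaperones had 15 of 16 positive with a median of 0.24, among them Hspa8 with 0.32 at its brightest probe (0.138) and Stip1 with 0.41 (0.176). Targets of PPAR-alpha, the fatty acid sensor, with peroxisomal oxidation and ketogenesis had 16 of 21 positive with a median of 0.23. Fgf21, a fasting hormone of the liver, had 1.19 (0.127), and Pdk4, which restrains glucose oxidation, 0.91 (0.139). Mitochondrial beta-oxidation had 15 of 17 positive with a median of 0.18. Its member with the smallest p was a fall, Echs1 with −0.41 (0.107), followed by Acadl with 0.49 (0.121) and Eci1 with 1.08 (0.146). Without ChGENE 4 and ChGENE 5 the medians of the chaperone and PPAR-alpha lists were 0.352 and 0.404. At the 75th-percentile scaling the medians were 0.034 for the chaperones, 0.114 for PPAR-alpha targets, 0.065 for beta-oxidation and 0.047 for the proteasome.

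Genes of the cytosolic ribosome show how far a list median depends on the scaling. The 38 genes of this list had a median of 0.02, and 0 passed even at an unadjusted p under 0.05. At the 75th-percentile scaling of all probes the same median was −0.271, and bright probes fell behind dim ones, with a median of −0.151 in the brightest of 4 equal bins and −0.018 in the dimmest. Quantile normalization held these medians between −0.0093 and 0.004. Because it gives every array the same distribution, the ribosomal median near 0 is no check on the scaling. Of the 83 probes, 26, 24, 16 and 17 lay in the 4 bins from dimmest to brightest.

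The tissue matched its label. The 10 hepatocyte markers, from albumin to the urea cycle enzyme Cps1, were all bright with a median of −0.07, and 0 passed. Markers of other cells moved less evenly. Of 13 Kupffer cell and macrophage markers, 11 were bright and 10 of these positive with a median of 0.636, and 0 passed. Of these markers, 2 were higher and 0 lower at an unadjusted limma p under 0.05 (18.2% and 0%, against 7.39% and 8.55% of all genes). Their summed linear level ran from 34550 to 71280 (median 47500) in Ch and from 30360 to 149800 (median 57890) in ChGENE. The scavenger receptor Marco stood at 12.18 and 12.02 in ChGENE 4 and ChGENE 5, against 5.36 to 8.71 in the other ChGENE arrays and 5.60 to 9.78 in Ch. C1qb of the same list stood at 15.61 and 15.64, against 13.4 to 15.34 and 13.34 to 14.52. Without ChGENE 4 and ChGENE 5 the log2 fold change went from 1.45 to 0.30 for Marco and from 0.64 to 0.27 for C1qb. Both genes were picked after their values were seen. Of 12 stellate cell markers 10 were bright, with a median of 0.329 and sums of 5552 to 7569 in Ch and 5439 to 10030 in ChGENE. These markers were mixed: 7 were positive and 3 negative, down to −0.582, and 0 passed. At an unadjusted limma p under 0.05, 4 were higher and 2 lower (40% and 20%, against 7.39% and 8.55% of all genes). The part of these cells in the rises of Ltbp4, Loxl2 and Cxcl12 was not tested. In whole liver, fewer cells of a type and less RNA per cell cannot be told apart.

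Red cell genes showed no common shift. Slc4a1, the anion exchanger of red cells, passed at −1.32 (limma adjusted p = 0.0374, and 0.133 averaged), but the other 5 bright markers lay between 0.02 and 0.34, and the summed level was 152000 to 318100 in Ch and 176000 to 384200 in ChGENE. Fabp2, the intestinal fatty acid binding protein, had 1.63 (0.0965). Of the other 9 pancreas and intestine markers 1 was bright, and Prss1, Pnlip, Vil1 and Cdx2 were above background on 0 arrays. So were the adipocyte marker Plin1 and the B cell marker Ms4a1.

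Single arrays weighed on the number of probes that passed. It was 13 without Ch 2 and 209 without Ch 3. Without Ch 4, Ch 5 and Ch 6 in turn it was 120, 138 and 51, and without Ch 1, Ch 7 and Ch 8 it was 34, 36 and 34. Leaving out ChGENE 1 and ChGENE 2 in turn gave 109 and 83, and leaving out ChGENE 3 to ChGENE 8 gave 36, 32, 42, 21, 24 and 33. When ChGENE 4 and ChGENE 5 were both left out, 28 probes passed, 9 higher (0.064%) and 19 lower (0.135%), and 19 of the 28 were among the 83. In all 16 fits with 1 array left out, 11 probes passed, among them both Trim47 probes, Scd, Zfp354a, Slc2a1 and the brighter Igfbp2 probe. The other probes each lost the call in at least 1 of them. The median probe of the 83 passed in 6 of these fits.

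**Figure D5:**
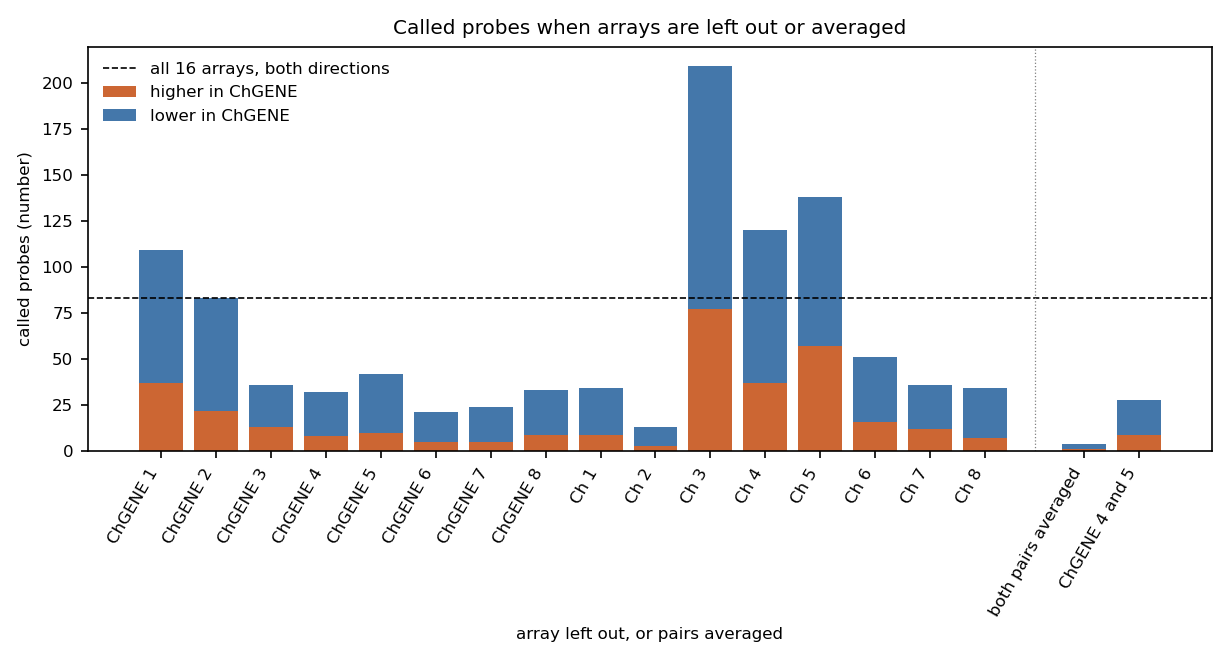
Bars are the number of probes that passed, higher (orange) and lower (blue) in ChGENE, when each of the 16 arrays is left out, and at the right when both near-identical pairs are averaged or ChGENE 4 and 5 are left out. The dashed line marks 83, the number with all arrays. The bars run from 4 to 209.

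Levels under the Hayward diet are set beside these, with all 24 arrays normalized together over the same probes. The comparisons share the Ch arrays, so the values are a description. The Scd median was 10.84 for Ch, 6.85 for ChGENE and 9.06 for ChHAYW, whose arrays ran from 7.98 to 10.96. Zfp354a had 10.18, 6.77 and 8.87 in the same order, and Slc2a1 8.74, 7.88 and 8.29. In these 3 genes the ChHAYW median lay between the others, as it did for Cyp8b1 (11.40, 13.48 and 12.19) and Galt (11.40, 12.79 and 12.13). Igfbp2 had 14.19, 12.22 and 13.84, C1h11orf86 6.77, 10.35 and 7.20, and Tsc22d1 9.76, 11.23 and 9.67, so that ChHAYW lay nearer to Ch. ChHAYW lay nearer to ChGENE in other genes, among them Trim47 (8.97, 9.76 and 9.49), Tob2 (12.3, 10.82 and 11.1), Scart1 (7.85, 6.59 and 6.75), Tsc22d3 (11.97, 11.11 and 10.84) and Abcg3 (7.63, 8.14 and 8.2).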

How the data were processed

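Each sample was 1 single-colour Agilent rat array of 62976 spots. The authors deposited the Feature Extraction 10.10.1.1 output, whose processed signal is a linear intensity corrected for background and spatial trend within the array and not scaled between arrays. Spots marked as outliers were left out, log2 values of a probe's spots were averaged, and bright probes (well above background on all 16 arrays, in at least 0.5 of a probe's spots) were quantile normalized with limma 3.58.1 in R 4.3.3. The diets were compared with lmFit and eBayes, and 18693 probes were named through RefSeq accessions. Members, gene lists and named genes were chosen with earlier results of these data known. Named were the 15 largest rises and falls, passing list members, up to 3 further members a list, genes the study names, and other probes of these. The script was tested on simulated data. Deviations of same-numbered arrays of the diets correlated unevenly, with r from −0.349 to 0.47 and over 0.1 in 3 of 8 pairs. Alternatives were other scalings, background corrections, filters, fits and arrays left out. Averaging near-identical arrays and leaving out ChGENE 4 and 5 together were chosen after seeing the data. The study's scaling between arrays is not given in the sources read here. Some genes are not reported here. The number of arrays limits the precision.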

Additional observations from a re-analysis of the deposited data

Results flagged for a closer look

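Among 232 sets of 8 levels (a named probe in 1 diet), 6 held an array whose gap to its neighbour was large against the group's range, 3 in Ch and 3 in ChGENE. In Ch, Ch 4 was lowest for the dimmer Prodh probe (5.62, next 7.52, gap 0.566 of the range) and for Msmo1 (11.42, next 11.83, gap 0.599), and Ch 7 was lowest for Abcg3 (6.84, next 7.28, gap 0.552). In ChGENE, ChGENE 1 was highest for the dimmer Aldh4a1 probe (8.11, next 7.52, gap 0.528), ChGENE 6 was lowest for Fdft1 (11.41, next 11.66, gap 0.663) and ChGENE 7 was highest for Cxcl12 (12.40, next 11.80, gap 0.554). This check marks some groups by chance alone, at its 0.05 level.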

How the results depend on the processing

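With near-identical arrays averaged, 4 probes passed (1 higher, 3 lower), and without ChGENE 4 and 5, 28 (9 and 19), with Orm1 at −0.453, S100a9 at −0.787 and the bile acid median at −0.126. Leaving out 1 array gave 13 to 209 (3 to 77 higher, 10 to 132 lower). Among the other alternatives, 75th-percentile scaling gave 206 (173 lower, 84% of calls against 67.5%), median scaling 180 (147 lower, 81.7%), spike-in scaling 82 (78 higher, 4 lower, 4.88%), no filter on dim probes 64 (37 lower), the brighter 50% of probes 53 (32 lower), the methods' t-test 58 (17 higher), arrayWeights 879 (369 and 510) and all 24 arrays 301 (106 and 195). The replicate block gave 43 (14 and 29), and 30 of these were among the 83. The numbers paired 3 of 8 pairs of arrays at r over 0.1, and 1 ChGENE array was closest to its own number. The cause of these shifts was not tested.

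Spike-in scaling moved the median of all bright probes to 0.414. There Idi1 was 0.005, Fdft1 0.104, Srebf2 0.079, Msmo1 0.091, Sord 0.040, Elovl6 0.154 and the dimmer Cyp2b2 probe 0.012. List medians were 0.226 for cholesterol synthesis, 0.274 for its control, 0.373 for fatty acid synthesis, 0.001 for bile acids, 0.093 for amino acids, 0.044 for pericentral, 0.182 for periportal, 0.199 for galactose, 0.312 for glycolysis, 0.581 for PPAR-alpha, 0.533 for beta-oxidation, 0.514 for proteasome and 0.197 for ribosomal genes. At the 75th percentile, Hspa8 was −0.006 and Elovl1 −0.045 (−0.028 with median scaling and −0.002 without ChGENE 4 and 5), and medians were −0.466 for bile acids, −0.285 for periportal, −0.155 for glycolysis, 0.047 for proteasome and −0.271 for ribosomal genes. Median scaling gave −0.450, −0.139, 0.063 and −0.254 for bile acid, glycolysis, proteasome and ribosomal genes. The pericentral median was −0.067 in the brighter 50% of probes. With arrayWeights, the second Abcg3 probe was −0.035, Orm1 −0.114 and S100a9 −0.262. Leaving out 1 array moved the median of SREBP control from −0.171 to −0.038 and that of glycolysis from −0.059 to 0.090.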
